A study of Mus musculus with 6 samples.

Results

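Pax5 peaks, H3K27ac and H3K4me3 were described at 10 genes known as repressed by Pax5 in pre-B cells of the mouse, of the 22367 protein-coding genes annotated in GENCODE M1. The genes are Flt3, Csf1r, Notch1, Lmo2, Cd28, Ccl3, Ccr2, Prdm1, Xbp1 and Sdc1, and they were named from what is known of Pax5 in general, with earlier results of these data in view. Each gene was given a window of its annotated body plus 20 kb on each side, and its promoter was the sequence within 1 kb of any annotated transcript start. A gene counted as having a peak where at least 1 bp of the peak lay in the window or promoter.

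Pax5 is a paired-domain transcription factor that commits progenitors to the B cell lineage and holds them there. It is known both as an activator of B cell genes and as a repressor of genes of other lineages, of progenitors and of plasma cells. Acetylation of histone H3 (H3K27ac) is found at enhancers and promoters in use, and H3K4me3, a methylation of the same histone, at promoters, in particular those rich in the dinucleotide CpG.

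The series holds 6 ChIP-seq samples of pre-B cells, which are 1 library each for Pax5, H3K27ac and H3K4me3 and 3 input controls, whose reads are not used here. The cells came from B6 RAG-/- µ+ mice, which cannot recombine their own antigen receptor genes and carry an IgM transgene that is already rearranged, so all 3 profiles share both alleles. The strain is C57BL/6, with animals of both sexes aged 6 to 14 weeks. The labels do not give the promoter of the transgene or how many animals went into a library, and no group without Pax5 is among the samples.

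Each file lists positions and gives no reads, so library depth is unknown, and no value has a replicate check or a test. The Pax5 list holds 15445 peaks with a median width of 965 bp and scores of 87.9 to 3214. The H3K27ac list holds 69345 peaks with a median width of 428 bp and scores of up to 330. The score is the peak caller's own number, its scale is not named, and it was used only within a list. The H3K4me3 list holds 782636 bins of 25 bp, which were joined where they touch into 23237 regions and carry no score.

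The label of the cells was checked against markers. All 7 B lineage markers had Pax5 and H3K27ac at the promoter, and 6 of 7 had H3K4me3, with Igll1, a part of the surrogate light chain, as the exception. None of 5 T cell, 5 myeloid and 4 erythroid markers had Pax5 at the promoter. H3K27ac lay at 1 of 5 T cell promoters, namely Lck, and at 2 of 4 erythroid promoters, with scores of 9.75 and 14.07. It also lay at 5 of 5 myeloid promoters, with a median score of 8.16 against 61.3 at the B lineage markers, and 3 of the 5 had H3K4me3. In a population of cells, a mark in few cells and a weak mark in all of them cannot be told apart.

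Of the 10 genes, 8 had a Pax5 peak in the window, beside 58.2% of all protein-coding genes, and Cd28 and Ccr2 had none. The windows of the 10 genes were longer, with a median of 65.2 kb against 55.4 kb. Among windows of 40 to 60 kb 2 of 3 had a Pax5 peak (51.3% of all genes of that length), among those of 60 to 100 kb 4 of 5 (69.7%), and among those of 100 to 150 kb 2 of 2 (68.0%). The 8 genes held 22 Pax5 peaks. Pooled over the 10 windows this is 2.87 per 100 kb, against 1.37 pooled over all protein-coding genes. Windows reached 131 kb among the 10 genes and 4475 kb among all genes, and long windows weigh most in a pooled value. These densities are thus not matched for length. There were 3 or more at Flt3, Notch1, Prdm1, Xbp1 and Lmo2, beside 14.7% of all genes and 16.7% of those with windows of 60 to 150 kb. A Pax5 peak at a promoter was found for 6 genes, beside 38.1% of all. With the higher-scoring 50% of the Pax5 list, 4 of the 10 genes had a peak in the window, beside 41.1% of all genes, and 3 had one at a promoter, beside 23.7%. H3K27ac was in all 10 windows, beside 68.3% of all, and at 8 promoters, beside 49.0%. Flt3, Notch1 and Lmo2 had 16 or more H3K27ac peaks, beside 5.23% of all, and Xbp1 and Ccr2 had 10 or more as well, beside 14.1%. These shares are not matched for window length, and the windows of Flt3 and Notch1 were 110 and 98.8 kb long. H3K4me3 was in 7 windows, beside 65.9% of all, and at 7 promoters, beside 53.0%.

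**Figure D1:**
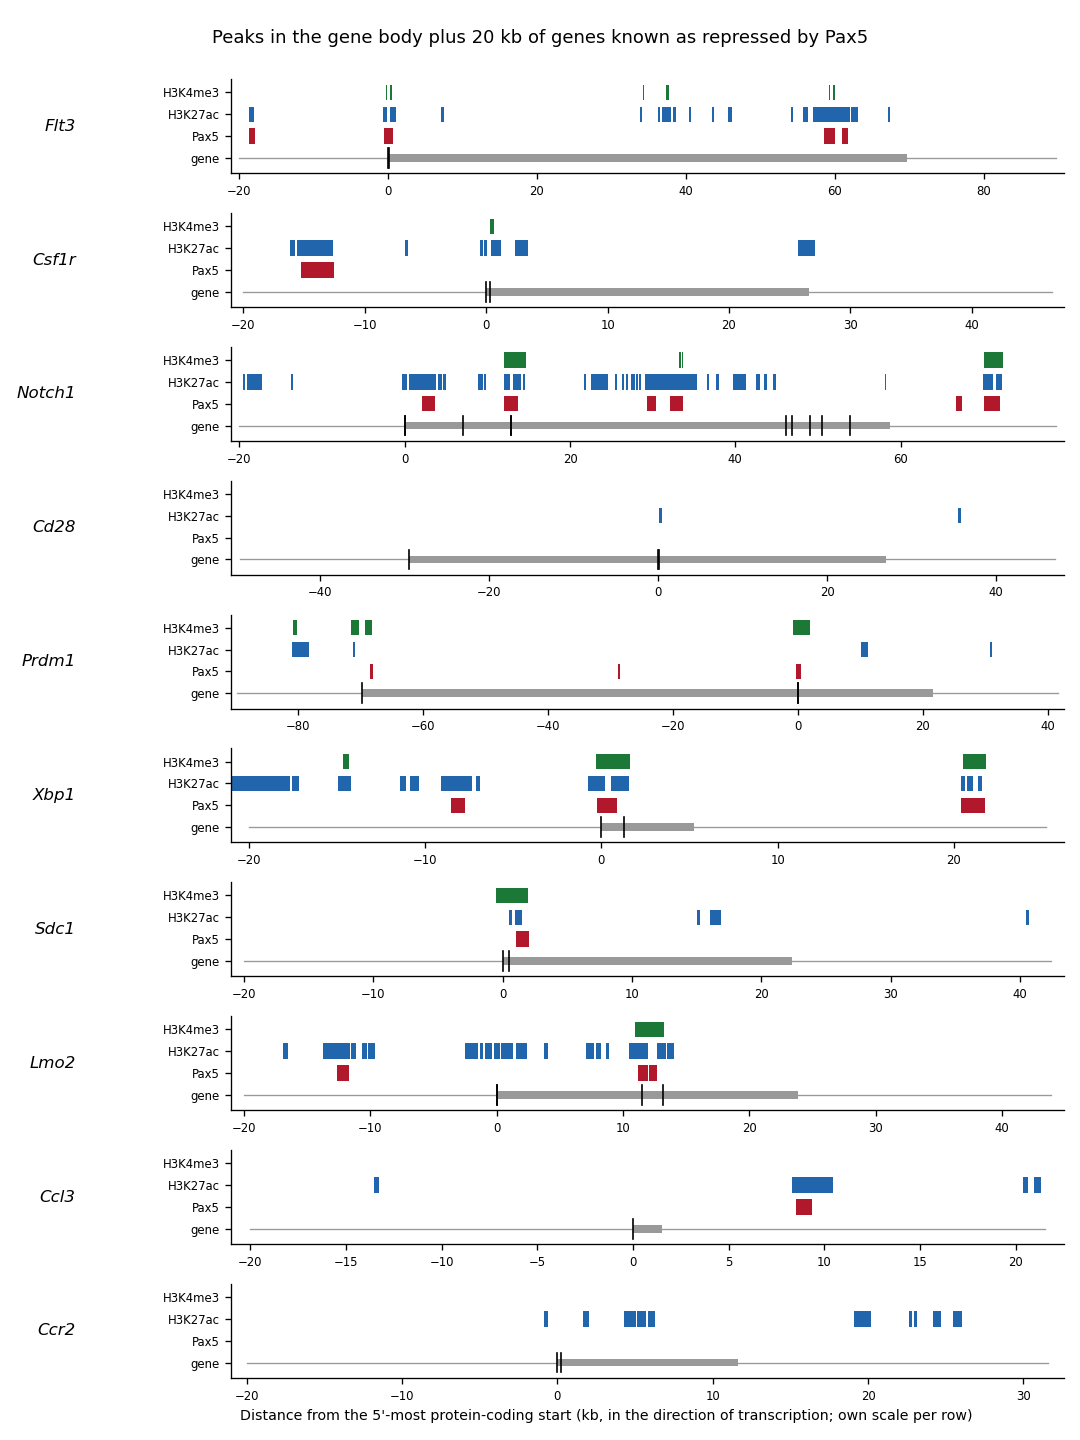
Peaks of the 3 lists at the 10 genes. The horizontal axis is the distance from the most upstream protein-coding start in kb, positive in the direction of transcription, with its own scale for each gene. Grey bars are gene bodies, thin grey lines the 20 kb flanks, black ticks the outer starts of each cluster of annotated starts, and coloured boxes peaks or regions, drawn at least 0.15 kb wide and cut at the edge of the axis. Notch1 carries 6 Pax5 and 30 H3K27ac peaks, whereas Cd28 carries 2 H3K27ac peaks and nothing else.

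The promoters of the 10 genes fell into 5 classes. Pax5, H3K27ac and H3K4me3 were all present at Flt3, Notch1, Xbp1, Sdc1 and Lmo2, a state shared by 34.9% of protein-coding genes. Prdm1 had Pax5 and H3K4me3 without H3K27ac, which 2.21% of genes had. Csf1r had H3K27ac and H3K4me3 without Pax5 (10.9% of genes). Cd28 and Ccr2 had H3K27ac alone (2.73%), and Ccl3 had none of the marks (43.4%). No gene of the 10 had Pax5 and H3K27ac without H3K4me3 (0.469% of genes), Pax5 alone (0.474%) or H3K4me3 alone (4.94%).

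**Figure D2:**
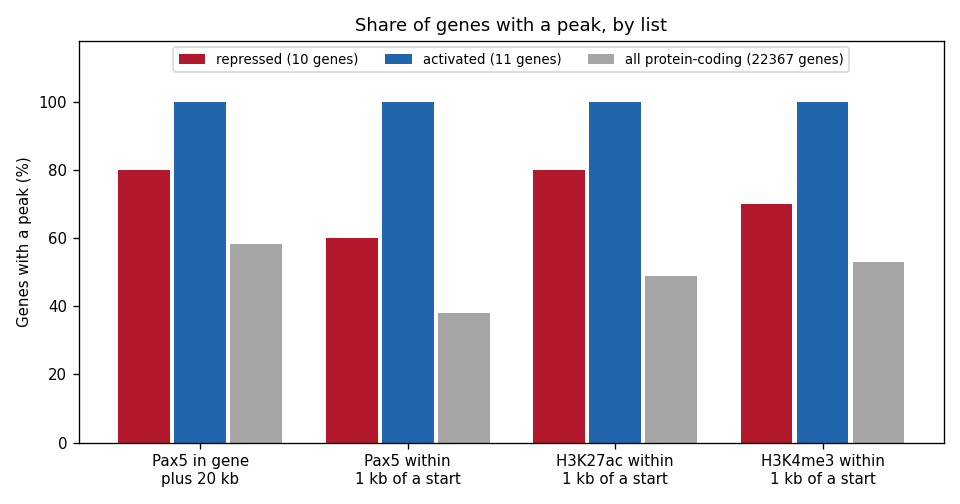
Share of genes with a peak, in percent, for the 10 genes known as repressed, 11 genes known as activated by Pax5 and all 22367 protein-coding genes. Bars start at 0 and have no error bars because each list is 1 library. All 11 activated genes had each mark, whereas the repressed genes lay between them and the background in all 4 pairs of list and window shown.

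Flt3 encodes the receptor of FLT3 ligand, which acts on early lymphoid and myeloid progenitors. It held 4 Pax5 peaks and 16 H3K27ac peaks. The peak at its start, chr5:148211366-148212494 (mm9), had a score of 473.91 and ranked 2775 in the list, the highest of the 10 promoters. That peak overlapped 2 H3K27ac peaks with scores of 5.63 and 13.19 and 3 short H3K4me3 regions, which together covered 425 bp around the start. The promoter thus paired a high Pax5 score with H3K27ac scores in the lower part of the range, since 17.7% of promoters with H3K27ac had a lower highest score. A pair of Pax5 peaks in the gene, chr5:148152014-148153517 and chr5:148150304-148151074, had scores of 143.12 and 167.33 and lay 59.1 and 61.2 kb from the start. Both were under a single H3K27ac peak of 4919 bp with a score of 150.21, which ranked 173 of 69345 and was the highest H3K27ac score in any of the 10 windows. The fourth, chr5:148229912-148230725, lay 18.3 kb upstream with a score of 108.33 and overlapped an H3K27ac peak with a score of 26.10.

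Csf1r encodes the receptor of the macrophage growth factor CSF1. No Pax5 peak lay at its promoter. Its single Pax5 peak, chr18:61249996-61252689, was 13.9 kb upstream, had a score of 465.87 and was wider than 99.3% of the list. An H3K27ac peak with a score of 52.95 covered 97.4% of it, and no H3K4me3 region lay within 12867 bp. At the start itself 3 H3K27ac peaks had scores of 7.33 to 11.43, and 1 H3K4me3 region covered 325 bp. The H3K27ac score was thus higher at the upstream site than at the start. The H3K27ac scores at the start lay within the range of the 5 myeloid markers, 4.60 to 15.7, and the part of other cells in this result was not tested.

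Notch1 encodes a receptor that directs progenitors to the T cell lineage. Its window held 6 Pax5 peaks, a number reached by 1.27% of all protein-coding genes and by 1.25% of those with windows of 60 to 150 kb. It also held 30 H3K27ac peaks, which 0.903% of all genes reached, a share not matched for window length. They covered 26.2% of the window. The annotation gives Notch1 6 clusters of starts. The most upstream starts had an H3K27ac peak with a score of 4.81, and one with a score of 44.67 began inside the promoter, but neither Pax5 nor H3K4me3 lay there. The cluster 12.8 kb further in had Pax5, chr2:26358421-26360128 with a score of 361.32, H3K27ac of up to 45.90, and an H3K4me3 region of 2700 bp that is wider than 97.3% of regions. Pax5 and H3K4me3 at Notch1 promoters were therefore confined to this internal cluster among the 6 clusters. A further peak, chr2:26368526-26370129, lay 2.83 kb inside the gene with a score of 264.65, wholly under the H3K27ac peak of 44.67. Deeper in the gene, chr2:26341795-26342889 and chr2:26338507-26340049 had scores of 101.41 and 163.27 and shared an H3K27ac peak of 6390 bp with a score of 55.45. The other two peaks were beyond the 3′ end of the gene. The one at chr2:26304788-26305524, with a score of 318.75, overlapped neither mark. The other, chr2:26300187-26302079, had a score of 811.24, the highest of the 22, but lay at the starts of Sec16a, an organizer of exit sites of the endoplasmic reticulum, and 0610009E02Rik. It was counted for Notch1 only because of the 20 kb flank.

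Lmo2 encodes an adaptor of transcription factor complexes in blood stem cells and progenitors. It held 3 Pax5 and 18 H3K27ac peaks. As at Notch1, the most upstream starts had H3K27ac, with scores of 9.16 to 11.43, without Pax5 or H3K4me3. The second cluster of starts, 11.5 kb further in, carried 2 Pax5 peaks, chr2:103809369-103810092 and chr2:103810177-103810828, with scores of 211.43 and 102.24. An H3K4me3 region of 2325 bp covered both, and H3K27ac there reached 49.66. These 2 peaks also overlap the annotated gene 4931422A03Rik, so they cannot be given to Lmo2 alone. The remaining peak, chr2:103785504-103786473, was 12.2 kb upstream under H3K27ac of 33.93, and its score of 90.16 was the lowest of the 22.

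Cd28, which encodes a costimulatory receptor of T cells, had no Pax5 peak and no H3K4me3 region in a window of 96.6 kb. Its H3K27ac peaks had scores of 8.16 at the start and 3.13 downstream of the gene. The nearest Pax5 peak was 25.2 kb from the gene, outside the window, with a score of 161.92. Of 5 T cell markers, Lck alone had H3K27ac at the promoter, with a score of 34.9, and Cd3e, Cd3g, Cd4 and Cd8a had none.

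Ccl3 encodes a chemokine that draws myeloid and T cells, and Ccr2 a chemokine receptor of monocytes. Neither had H3K4me3 in its window. The Pax5 peak of Ccl3, chr11:83453511-83454339 with a score of 168.78, was 8.93 kb beyond the start, downstream of the short gene, and lay wholly under an H3K27ac peak of 2146 bp with a score of 24.04. The other H3K27ac peaks of Ccl3 each scored 5.94. Ccr2 had no Pax5 peak within 133 kb of the gene, but it had 10 H3K27ac peaks with scores of 5.26 to 14.09. A single one of them, with a score of 5.63, reached the promoter. Of the 10, 5 lay downstream of the gene. Ccr2 thus had H3K27ac without Pax5, at scores within the range of those at the myeloid marker promoters. The part of myeloid or other cells in this result was not tested.

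Prdm1 encodes Blimp-1, a repressor that drives plasma cell differentiation. Its coding start was covered by the Pax5 peak chr10:44178093-44178925, with a score of 151.69, and by an H3K4me3 region of 2700 bp, as wide as the one at Notch1. The nearest H3K27ac peak was 9645 bp away, so Prdm1 was the only one of the 10 genes with Pax5 at the promoter and no H3K27ac there. An annotated start 69.8 kb upstream had H3K4me3 as well, and the Pax5 peak chr10:44246533-44247063, 1.51 kb inside that start, had a score of 94.60 and H3K4me3 without H3K27ac. An H3K27ac peak with a score of 31.64 lay 1.30 kb upstream of that start, just outside the promoter as defined here. The third peak, chr10:44206984-44207338, lay in the intron between them with a score of 107.50 and neither mark. None of the 3 Pax5 peaks of Prdm1 overlapped H3K27ac.

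Xbp1 encodes a transcription factor of the unfolded protein response that plasma cells need for secretion. Its promoter peak, chr11:5420418-5421570, had a Pax5 score of 145.10, below the median of 207 for the list, whereas H3K27ac reached 61.32 there, the highest of the 10 promoters. A lower Pax5 score thus stood beside a higher H3K27ac score than at Flt3. This order did not hold throughout, since Notch1 had 361.32 beside 45.90 and Prdm1 had 151.69 without H3K27ac. A second peak, chr11:5412121-5412911, lay 8.15 kb upstream with a score of 185.18, wholly under an H3K27ac peak with a score of 41.01. The third, chr11:5441064-5442398 with a score of 99.65, was at the start of the neighbour Ccdc117.

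Sdc1 encodes syndecan-1, the surface proteoglycan used as a plasma cell marker. Its Pax5 peak, chr12:8779132-8780137 with a score of 203.10, reached into the promoter, but its midpoint was 1026 bp past the nearest start. The peak overlapped an H3K27ac peak with a score of 19.85 and an H3K4me3 region of 2475 bp. With 500 bp in place of 1 kb around a start, Sdc1 had no Pax5 at the promoter.

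**Figure D3:**
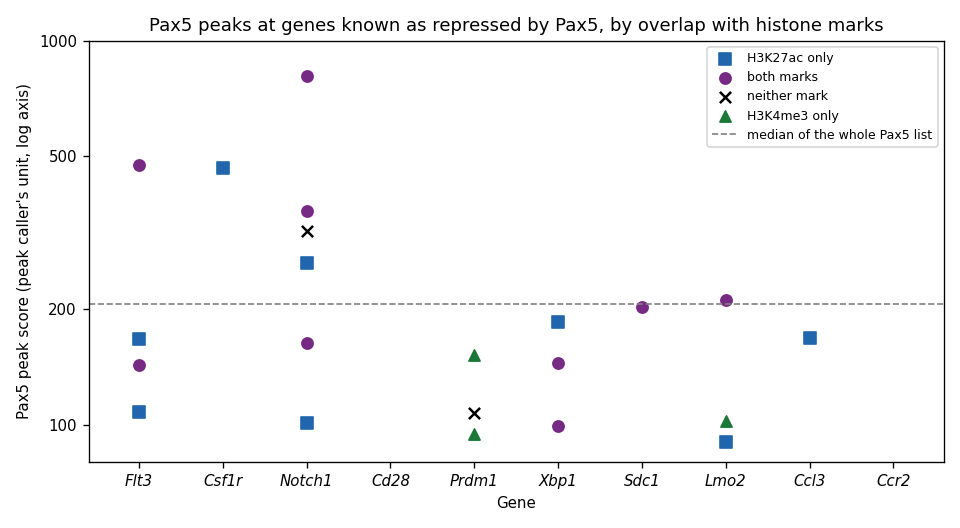
Score of each of the 22 Pax5 peaks by gene, on a log axis in the peak caller's unit, with the overlap with H3K27ac and H3K4me3 given by colour and shape. The dashed line is the median of the whole Pax5 list, 207. There are 7 peaks above the line, and Cd28 and Ccr2 have no peak. The highest point of Notch1 lies at the starts of its neighbour Sec16a.

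The 22 Pax5 peaks had a median score of 165 against 207 in the whole list, and 7 of them were above the median of the list. Of the 22, 9 overlapped both marks (40.9% against 56.0% of the list), 8 overlapped H3K27ac only (36.4% against 23.3%), 3 overlapped H3K4me3 only (13.6% against 4.97%) and 2 overlapped neither (9.09% against 15.7%). Thus 17 of 22 lay under H3K27ac, 77.3% beside 79.3% of the whole list, and 12 under H3K4me3, beside 61.0%. The midpoint was within 1 kb of an annotated start of any gene for 8 peaks, 36.4% against 52.1%, and over 5 kb from any start for 10, 45.5% against 36.4%. These shares rest on 22 peaks, several of which share a gene, and they describe the peaks without a test.

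The 11 genes known as activated by Pax5, which were chosen with earlier results of these data in view, had all 3 marks at all 11 promoters. Cd79a, Blnk and Ebf1 are in this list and also among the B lineage markers, so these lists are not separate references. Their windows held 58 Pax5 peaks, 3.48 per 100 kb, with a median score of 306. Of these, 65.5% were above the median of the list, against 31.8% of the peaks of the repressed genes, and 94.8% overlapped H3K27ac, against 77.3%. At the promoter, the highest Pax5 score was 145 to 474 for the 6 repressed genes with a peak and 198 to 1764 for the activated genes. The highest H3K27ac score was 5.63 to 61.3 for the 8 repressed genes with a peak, with a median of 16.5, and 17.9 to 114 for the activated genes, with a median of 61.3. The ranges overlapped in both lists, and the median over all promoters with H3K27ac was 31.7. Xbp1, Lmo2 and Notch1 were above that value and the other 5 repressed genes below it.

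**Figure D4:**
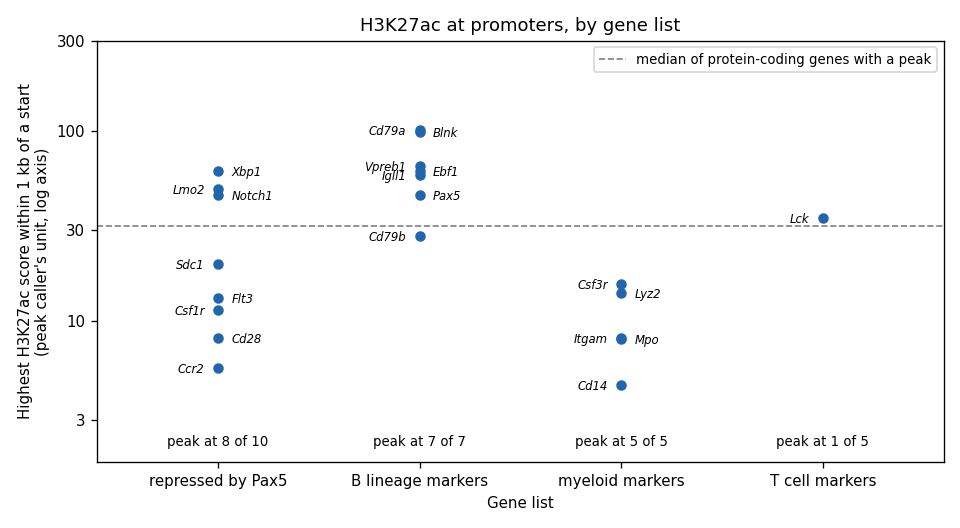
Highest H3K27ac score within 1 kb of a start, on a log axis in the peak caller's unit, for the genes known as repressed by Pax5 and for B lineage, myeloid and T cell markers. Points are genes with a peak, the number of genes with a peak is given under each list, and the dashed line is the median of protein-coding genes with a peak, 31.7. Flt3, Csf1r, Cd28 and Ccr2 lie at 5.63 to 13.19, within the range of the myeloid markers. The 2 erythroid markers with a peak, which are not drawn, had scores of 9.75 and 14.07.

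H3K4me3 at the starts went with their CpG content. The ratio of observed to expected CpG within 500 bp of the most upstream protein-coding start was 0.88 at Prdm1, 0.79 at Xbp1, 0.72 at Flt3 and 0.66 at Sdc1, and all 4 starts had H3K4me3, as did 86.6% of the protein-coding genes with a ratio of 0.6 or above. The ratio was 0.25 at Notch1, 0.21 at Cd28, 0.18 at Ccl3, 0.17 at Lmo2, 0.17 at Ccr2 and 0.16 at Csf1r. Of these 6 starts, that of Csf1r alone had H3K4me3, beside 9.03% of genes with a ratio below 0.4. H3K27ac was found at 5 of the same 6 starts, all but Ccl3, beside 14.6% of genes of that class. Notch1, Cd28, Lmo2 and Ccr2 thus had H3K27ac without H3K4me3 at starts of low CpG content, Csf1r had both and Ccl3 neither. The H3K4me3 regions of Notch1 and Lmo2 lay at their internal starts, which this ratio does not describe.

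The difference can be read from the 150 bases just upstream of these starts, written in the direction of transcription (mm9), with each CG in capitals. Prdm1, Xbp1 and Flt3 are shown as starts with H3K4me3, where the stretch lies under the Pax5 peak of the promoter, and Cd28, Ccl3 and Ccr2 as starts without Pax5 or H3K4me3. Csf1r, whose start had H3K4me3 at a ratio of 0.16, is not shown, so these stretches separate more cleanly than the 10 genes do.
Prdm1, chr10:44178555-44178704, minus strand, 13 CG: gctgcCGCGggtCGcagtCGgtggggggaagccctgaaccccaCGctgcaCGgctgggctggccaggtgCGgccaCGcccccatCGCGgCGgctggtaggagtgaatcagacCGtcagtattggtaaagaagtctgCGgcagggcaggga
Xbp1, chr11:5420512-5420661, plus strand, 9 CG: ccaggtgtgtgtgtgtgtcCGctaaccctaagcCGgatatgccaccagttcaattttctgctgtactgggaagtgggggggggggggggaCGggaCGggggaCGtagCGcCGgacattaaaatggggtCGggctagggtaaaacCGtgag
Flt3, chr5:148212066-148212215, minus strand, 8 CG: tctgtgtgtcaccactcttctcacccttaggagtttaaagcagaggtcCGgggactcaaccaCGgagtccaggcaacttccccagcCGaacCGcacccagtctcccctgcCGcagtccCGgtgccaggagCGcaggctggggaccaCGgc
Cd28, chr1:60803052-60803201, plus strand, 2 CG: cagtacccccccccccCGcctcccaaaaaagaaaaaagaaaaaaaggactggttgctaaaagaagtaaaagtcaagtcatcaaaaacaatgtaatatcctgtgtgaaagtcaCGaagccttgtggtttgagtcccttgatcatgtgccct
Ccl3, chr11:83462858-83463007, minus strand, 1 CG: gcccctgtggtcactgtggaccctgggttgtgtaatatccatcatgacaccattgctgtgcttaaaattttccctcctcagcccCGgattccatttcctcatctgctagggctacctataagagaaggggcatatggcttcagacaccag
Ccr2, chr9:124016539-124016688, plus strand, 2 CG: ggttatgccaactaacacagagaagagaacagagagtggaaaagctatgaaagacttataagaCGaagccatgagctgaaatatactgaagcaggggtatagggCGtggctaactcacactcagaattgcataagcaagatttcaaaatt

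**Figure D5:**
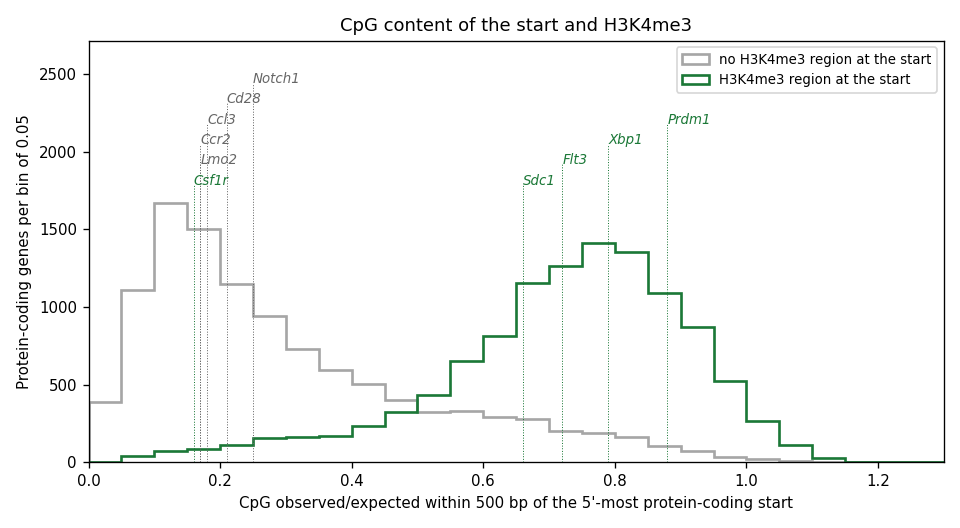
Ratio of observed to expected CpG within 500 bp of the most upstream protein-coding start, as the number of protein-coding genes per bin of 0.05, for genes with (green) and without (grey) an H3K4me3 region at that start. Dotted lines mark the 10 genes, coloured in the same way. Csf1r, at 0.16, is the green gene among the low ratios.

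The core letters of the Pax5 paired-domain site, GCGTGAC, were searched on both strands in the central 300 bp of each peak. They were present in 1 of the 22 peaks, 4.55%, beside 5.71% of all Pax5 peaks and 0.615% of H3K27ac peaks without Pax5. The looser GCNTGAC, which includes the first motif, was present in the centre of the same peak and no other. It was in the centre of 18.4% of all Pax5 peaks and of 9.78% of H3K27ac peaks without Pax5. When the whole peak was searched it was in 7 of the 22, beside 39.7% of all Pax5 peaks. Such a match is a description of the letters in the window. The peak with the core letters is the one 8.15 kb upstream of Xbp1, of which the stretch with the match is shown because it is the single case. The peak just inside the distant start of Prdm1 is shown beside it as a match to the looser letters away from the centre. Capitals mark the match, which in both is on the other strand, so that the letters read GTCACGC and GTCAGGC.
Xbp1 upstream peak, chr11:5412422-5412571, plus strand: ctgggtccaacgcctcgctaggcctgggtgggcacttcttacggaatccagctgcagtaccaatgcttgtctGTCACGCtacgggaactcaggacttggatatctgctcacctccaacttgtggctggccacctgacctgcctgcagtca
Prdm1 intron peak, chr10:44246533-44246682, plus strand: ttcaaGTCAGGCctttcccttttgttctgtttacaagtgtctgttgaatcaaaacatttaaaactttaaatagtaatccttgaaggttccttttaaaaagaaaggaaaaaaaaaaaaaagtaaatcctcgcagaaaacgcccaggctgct

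Genes related to the 10 by pathway were counted in the same way, without a test, and are read beside the shares of all protein-coding genes, 58.2% for Pax5 in the window and 38.1%, 49.0% and 53.0% for Pax5, H3K27ac and H3K4me3 at the promoter. Of 12 other genes of the Notch pathway (receptors, ligands, cofactors and targets), 11 had Pax5 in the window, 9 had Pax5, 8 had H3K27ac and 11 had H3K4me3 at the promoter. Of 8 other genes of plasma cells and the unfolded protein response, 7 had Pax5 in the window and 6 had all 3 marks at the promoter, beside 34.9% of all genes. Among 10 genes of progenitors and myeloid cells, mostly cytokine receptors and ligands, 8 had Pax5 in the window. At the promoter, 4 had Pax5 and 6 had H3K27ac, the 4 being near the share of all genes. Partners and relatives of Lmo2 had Pax5 in the window in 4 of 8 cases, below the share of all genes, and all 3 marks at the promoter in 3. None of 5 genes listed for T cell costimulation, among them the T cell marker Cd3e, had Pax5 at the promoter. Of these, 4 had it in the window, Cd3e included. Among 9 other chemokines and their receptors, 2 had Pax5 in the window, 5 had H3K27ac at the promoter and 0 had H3K4me3 there, the state also found at Ccr2.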

How the data were processed

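ChIP-seq of Pax5, H3K27ac and H3K4me3 in pre-B cells was analysed from 1 deposited list each. The submitters' processing notes name Bowtie 0.12.9, MACS 1.4.2 and mm9. The paper's methods state removal of duplicate reads and adapter trimming, and peak calling settings for these lists are not given in the sources used here. The score per peak that the authors deposited for Pax5 and H3K27ac comes from their peak caller and was compared only within a list. For H3K4me3 the authors deposited 25 bp bins, which carry other values than a score, namely positions alone, and how the bins were chosen is not given. Stricter calling shortens a list and can lower a count of genes with a peak.

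Positions refer to NCBIM37, the assembly of mm9, with GENCODE M1, and all peaks lay within its chromosomes. Overlap was at least 1 bp. All 10 genes and every Pax5 peak of their windows are named, and other genes are given by count, except where a peak lies at their promoter or a count is small. The 10 genes and all lists were chosen with earlier results of these data known. The overlap counts and the joining of bins were tested on simulated data, and the motif counts were not. Alternatives were other flanks and promoter widths, protein-coding starts only, midpoints or 50% of a peak as overlap, the higher-scoring 50% of a list, H3K4me3 regions joined over gaps below or at 100 bp, and whole peaks for motifs. Python 3.11.15, pysam 0.24.0, samtools 1.23.1, numpy 2.4.6 and matplotlib 3.10.9 were used. The reads of the 3 input samples were not used here.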

Additional observations from a re-analysis of the deposited data

How the results depend on the processing

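Of 46 values of 13 counts under an alternative, 39 stayed within 1.5 times the reported count and 7 did not. With the higher-scoring 50% of the Pax5 list, 4 of the 10 genes had Pax5 in the window (41.1% of all protein-coding genes), with 7 peaks, so that the share in the window no longer exceeded that of all genes, and 3 had it at the promoter (23.7%), where Prdm1, Xbp1 and Sdc1 lost it. Without a flank the windows held 14 Pax5 and 65 H3K27ac peaks, and a flank of 50 kb gave 171 H3K27ac peaks. GCNTGAC was found in 7 peaks when whole peaks were searched. Each of these settings changed the length of the list, of the window or of the stretch searched. Of the promoter calls, Cd28 and Ccr2 lost H3K27ac with the higher-scoring 50% of that list, Ccr2 also with 500 bp around a start, Sdc1 lost Pax5 with 500 bp or with midpoints, and Prdm1 gained H3K27ac with 2500 bp. No paired analysis was possible because there is 1 library per mark. Depth is unknown, so a gene without a peak may hold signal below the authors' threshold.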

Other observations

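Ctla4 encodes an inhibitory receptor of T cells that binds the same ligands as Cd28. Its annotated gene begins 114 kb after the end of Cd28 on chromosome 1, and it was looked at after the values of Cd28 were seen. The window of Ctla4 held 2 Pax5 peaks. The peak chr1:60925117-60925816 (mm9) had a score of 367.91 and neither histone mark. It lay upstream of the annotated gene, 40.4 kb from the start used for distances. The peak chr1:60972890-60973941, with a score of 496.74 under H3K27ac, lay downstream of the gene. Both scores were above the median of 207 for the Pax5 list, whereas the window of Cd28 held none.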
